A study of Mus musculus with 2 samples.

Results

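Polycomb repressor genes encode the subunits of the complexes PRC1 and PRC2, and the islands of Brg1 binding around 10 of them were described here in mouse medulloblastoma. The 10 were chosen by name: Ezh1, Ezh2, Eed, Suz12 and Jarid2 of PRC2, and Bmi1, Pcgf2, Ring1, Rnf2 and Cbx2 of PRC1. All 10 were found among the 21631 protein-coding genes of RefSeq on mm10. An island, a region in which the peak caller SICER found an excess of reads, was counted for a gene when it lay in the gene or within 5 kb of it. It was called distal when it lay further away but within 50 kb. Of the 5727 islands of the deposited list, 9 lay in or within 5 kb of a Polycomb gene and 3 more were distal.

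The study profiled Brg1 by ChIP-seq in primary medulloblastoma, a cerebellar cancer, that formed spontaneously in mice of genotype CAG-CreER, Rosa26-SmoM2. SmoM2, a mutant Smoothened that signals without Hedgehog ligand, is expressed from Rosa26, and the Cre is driven by the broadly active CAG promoter. There was 1 ChIP library and 1 input library from the same genotype, and the input is not analysed here. How many tumours were pooled per library is not stated. The J1 antibody recognises Brg1 and its paralogue Brm, so an island can hold either ATPase. A single ChIP library gives no spread between animals and allows no test. The Poisson intervals on reads below cover counting error only. The Wilson intervals on shares treat genes as independent draws, though these were chosen by name, and they serve as no test. The total depth is not known, and islands over the whole list held a median of 68 reads over a median width of 2200 bp. The list gives binding and no expression, so the tissue label was not checked against marker genes, and genes with no island may still bind Brg1 below the caller's limit.

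Polycomb proteins keep developmental genes silent. PRC2 methylates histone H3 through Ezh1 or Ezh2, with Eed and Suz12 needed for its activity and Jarid2 as a subunit that guides it to its targets. PRC1 ubiquitinates histone H2A through Ring1 or Rnf2, paired with a PCGF protein such as Bmi1 or Pcgf2, and its Cbx subunits read the mark that PRC2 leaves. The BAF complexes that Brg1 drives are known as opponents of Polycomb on chromatin, and Bmi1 is known in the cerebellum for a role in the proliferation of granule neuron progenitors.

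Brg1 islands covered the annotated start of 4 Polycomb genes, Ezh2, Suz12, Jarid2 and Rnf2. The 250 bases before these starts are shown first because the islands lie on them. Those of Ezh1 and Ring1, the paralogues of Ezh2 and Rnf2 within the same complexes, follow because no island lay on them. The sequences are from RefSeq on GRCm38.p6, read 5′ to 3′ on the strand of the gene. Capitals mark CCAAT and GGGCGG, the letters of the CCAAT box and of the GC box, on either strand. Ezh2 is at chr6:47595031-47595280 on the minus strand, Suz12 at chr11:79992856-79993105 on the plus strand, Jarid2 at chr13:44730524-44730773 on the plus strand and Rnf2 at chr1:151500992-151501241 on the minus strand. Ezh1 is at chr11:101226464-101226713 and Ring1 at chr17:34024681-34024930, both on the minus strand.
Ezh2: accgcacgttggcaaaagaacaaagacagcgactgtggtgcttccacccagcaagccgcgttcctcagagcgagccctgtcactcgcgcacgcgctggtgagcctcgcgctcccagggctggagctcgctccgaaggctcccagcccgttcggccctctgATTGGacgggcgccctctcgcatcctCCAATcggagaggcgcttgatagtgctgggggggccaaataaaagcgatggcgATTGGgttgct
Suz12: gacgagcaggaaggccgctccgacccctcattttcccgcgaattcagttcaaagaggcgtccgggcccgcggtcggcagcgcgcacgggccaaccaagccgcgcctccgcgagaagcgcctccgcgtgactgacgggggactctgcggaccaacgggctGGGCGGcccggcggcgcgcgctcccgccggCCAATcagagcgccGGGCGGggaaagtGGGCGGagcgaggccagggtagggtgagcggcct
Jarid2: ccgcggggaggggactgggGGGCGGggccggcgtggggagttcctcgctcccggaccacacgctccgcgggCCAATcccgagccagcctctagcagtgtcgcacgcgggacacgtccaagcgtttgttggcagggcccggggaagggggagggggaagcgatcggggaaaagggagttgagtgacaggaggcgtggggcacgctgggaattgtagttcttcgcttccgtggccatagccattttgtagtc
Rnf2: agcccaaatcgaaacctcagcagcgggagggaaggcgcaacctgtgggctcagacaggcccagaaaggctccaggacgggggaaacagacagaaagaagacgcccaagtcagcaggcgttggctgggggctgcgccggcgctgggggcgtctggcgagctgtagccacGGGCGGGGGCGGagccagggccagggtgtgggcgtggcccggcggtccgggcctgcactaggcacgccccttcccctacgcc
Ezh1: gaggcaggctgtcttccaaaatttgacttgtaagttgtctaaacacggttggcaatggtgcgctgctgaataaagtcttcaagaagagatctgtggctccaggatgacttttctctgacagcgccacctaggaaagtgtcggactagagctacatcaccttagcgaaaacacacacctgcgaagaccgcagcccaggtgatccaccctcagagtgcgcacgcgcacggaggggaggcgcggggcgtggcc
Ring1: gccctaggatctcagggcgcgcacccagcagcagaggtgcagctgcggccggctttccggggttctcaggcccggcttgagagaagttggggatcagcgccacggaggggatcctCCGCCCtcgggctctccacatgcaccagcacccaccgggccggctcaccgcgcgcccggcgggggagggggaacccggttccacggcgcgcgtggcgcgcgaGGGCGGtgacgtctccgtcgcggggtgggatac

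All 250 bases lay inside an island in Ezh2, Suz12, Jarid2 and Rnf2, and none did in Ezh1 and Ring1. The promoters on which islands lay were rich in CpG dinucleotides, a feature of broadly used promoters in mammals. The 250 bases held 23 CpG in Ezh2, 37 in Suz12, 23 and 22 before the 2 annotated starts of Jarid2, and 20 in Rnf2. Those whose start lay outside islands held 14 in Ezh1, 12 in Eed, 21 in Bmi1, 5 in Pcgf2 and 30 in Ring1. The only start of Pcgf2 in the promoter table, at 97699648, lay inside the gene, which reaches 97702434 on the minus strand. Its window may therefore not represent the promoter at the end of the gene. The ranges overlapped, since Bmi1 and Ring1 lay within the range of the covered promoters. Over 21045 promoters of protein-coding genes, the median was 20 CpG in the 1792 with the start inside an island and 9 in the 19253 with it outside. The GC content was between 63.6% and 73.6% in the covered Polycomb promoters and between 54.4% and 73.6% in the others. The table of promoters held 9 of the 10 genes, and Cbx2 is named only.

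**Figure D1:**
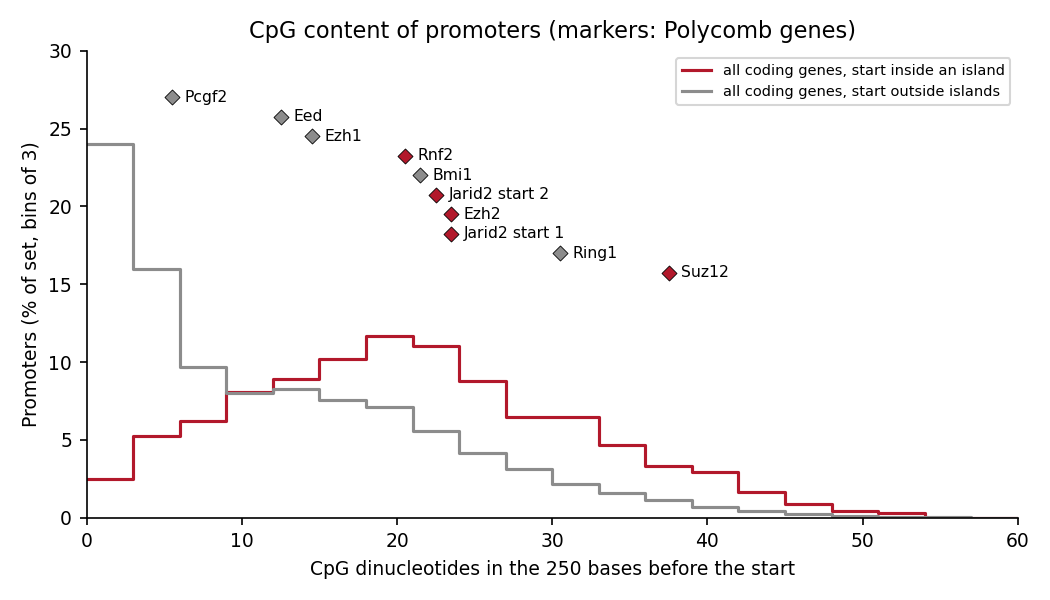
CpG dinucleotides in the 250 bases before each annotated start (horizontal axis), as the percentage of promoters of all coding genes in bins of 3 (vertical axis), for starts inside an island (red line) and outside islands (grey line). Diamonds mark the promoters of 9 Polycomb genes in the same colours, with heights chosen for legibility alone. The covered ones held 20 to 37 CpG and the others 5 to 30. The lowest, Pcgf2, was taken at a start inside the gene.

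Of 10 short motifs searched on both strands, GGGCGG occurred in the most Polycomb promoters. CCAAT occurred in 3 of 9 genes, Ezh2, Suz12 and Jarid2, with 3 matches in Ezh2 at 90, 64 and 11 bases before the start. It occurred in 35.6% of all promoters, in 34.5% of those with the start in an island and in 35.8% of the rest. GGGCGG occurred in 6 of 9 genes and was absent from the windows of Ezh1, Ezh2 and Eed. Its share was 43.1% of all promoters, 67.0% of those with the start in an island and 40.8% of the rest. CAGCTG, an E-box, occurred in Jarid2, Pcgf2 and Ring1 and in 12.2% of all promoters. TATAAA occurred in Jarid2, 31 bases before its second start, and in 11.7% of all promoters. GACCACC, part of the site of the Hedgehog effector Gli, occurred in the Pcgf2 window, which lies inside the gene, and in 2.36% of all promoters. The other motifs were in none of the 9. Of all promoters, 9.08% held CCGGAAG, the core of the ETS site. GCGCATG, part of the NRF1 site, was in 4.0%. Of the letters found in E2F sites, TTGGCGC was in 2.51% and TTTCGCG in 0.993%. AAGATGG, part of the YY1 site, was in 4.17%. No motif contains another, and neighbouring matches of GGGCGG overlap in Bmi1. Polycomb genes were counted once each, with the windows of Jarid2 pooled, whereas the shares of all promoters are over single windows. A match is a run of letters and not a measured site.

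Islands in or within 5 kb of the gene were found at 6 of the 10 Polycomb genes, Ezh1, Ezh2, Suz12, Jarid2, Bmi1 and Rnf2. This is 60% (Wilson 95% interval 31.3 to 83.2), against 16.9% of all protein-coding genes. Long genes have islands more often, so all genes were divided by length into 5 classes of equal size, in which 6.73% (shortest class), 11.5%, 14.2%, 18.0% and 34.1% (longest class) had one. Taking for each of the 10 genes the share in its own length class, these shares added up to 1.84 genes. The annotated start lay within 1 kb of an island in 4 of the 9 Polycomb genes with a start in the table (44.4%, Wilson 95% interval 18.9 to 73.3), against 9.53% of 17274 genes. In each of the 4 the start lay inside the island, as it did in 8.57% of those 17274 genes. A distal island was found at 2 of the 10, Ezh1 and Cbx2, against 22.1% of all genes, so the distal count was close to the background. Eed, Pcgf2 and Ring1 had no island within 50 kb, against 66.9% of all genes. No test was made of these counts, since the genes were chosen with results of these data known.

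**Figure D2:**
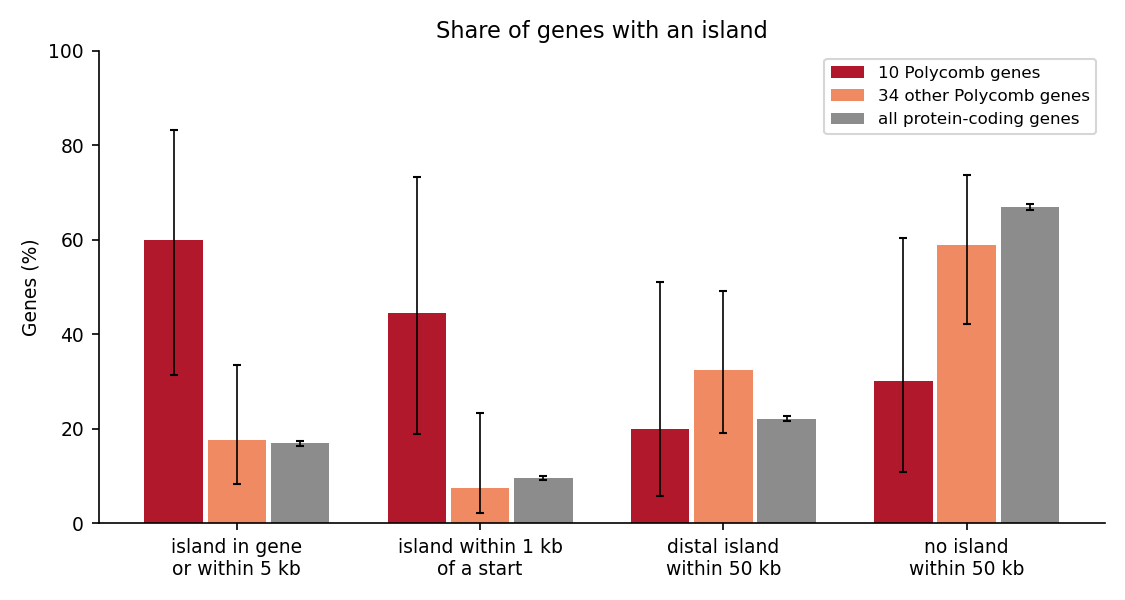
Percentage of genes (vertical axis) that meet each of 4 rules (horizontal axis), for the 10 Polycomb genes (red), 34 other Polycomb genes (orange) and all protein-coding genes (grey), with Wilson 95% intervals. Near islands were found at 60% of the 10 genes and 16.9% of all genes, distal islands at 20% and 22.1%. Starts were counted over the genes with a start in the table.

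Among the PRC2 genes, 4 of 5 had an island in or within 5 kb (Wilson 95% interval 37.6 to 96.4), against 16.9% of all genes. At 3 of 5 it lay across the start (23.1 to 88.2), against 8.57% of all genes with a start in the table. The island at Ezh2, the methyltransferase that predominates in dividing cells, held 91 reads (exact Poisson 95% interval 73.3 to 112) over 2800 bp on chromosome 6 (47593602 to 47596401). It ran from 1371 bp before the start to 1428 bp after it, so its midpoint lay 28.5 bp after the start. Among the 357 islands of that width, whose median was 80 reads, it stood at percentile 78.3. The island also overlapped F830010H11Rik, an annotated lncRNA, and reads of the pair cannot be told apart.

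Ezh1, the methyltransferase known for its role in resting cells, had its island outside the gene. That island held 61 reads (46.7 to 78.4) over 2000 bp and ended 2824 bp before the start (chromosome 11, 101229287 to 101231286). Its count lay close to the median of 62 reads among the 501 islands of that width. It was nearer to Ezh1 than to any other protein-coding gene, the next being Ramp2 at 15048 bp. A distal island of 67 reads (51.9 to 85.1) lay 16.03 kb beyond the other end of Ezh1, across ends of Ccr10, a chemokine receptor gene, and Cntnap1, a neuronal adhesion gene. The methyltransferase paralogues thus differed in where the island lay, on the start of Ezh2 and before that of Ezh1. Their counts were 91 reads at Ezh2 and 61 at Ezh1, over islands of unequal width and with overlapping intervals.

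Suz12, a scaffold subunit of PRC2, had an island of 62 reads (47.5 to 79.5) over 2000 bp (chromosome 11, 79992499 to 79994498). It ran from 607 bp before the start to 1392 bp after it, and its count equalled the median of islands of that width. Eed, the subunit that binds the methylated histone, had none within 50 kb. The nearest island to Eed, of 53 reads, lay 58.1 kb before its start and overlapped E230029C05Rik, an annotated lncRNA. Of all protein-coding genes, 64.6% had their nearest island at least that far away.

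Jarid2 carried 4 islands, the first across its start and the others inside the gene. Of all genes, 0.555% had 4 or more in the gene or within 5 kb. In the longest of the 5 length classes, to which Jarid2 belongs with 190870 bp, 2.57% did. The first island held 117 reads (96.8 to 140) over 4200 bp on chromosome 13 (44730432 to 44734631), from 342 bp before the first annotated start to 3857 bp after it. It covered both annotated starts and extended further into the gene than those of Ezh2 and Suz12. A second island of the same width and the same count lay inside the gene, at 44795032 to 44799231, and its near edge was 63761 bp after the second start. The 2 others inside the gene held 65 reads (50.2 to 82.8) over 2200 bp, at 44814232 to 44816431, and 44 reads (31.97 to 59.1) over 1200 bp, at 44907632 to 44908831. Both 4200 bp islands stood at percentile 91.6 of the list by reads, but at percentile 42.7 among the 82 islands of that width. A further island of 52 reads lay 79.6 kb beyond the gene, across an end of Dtnbp1.

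**Figure D3:**
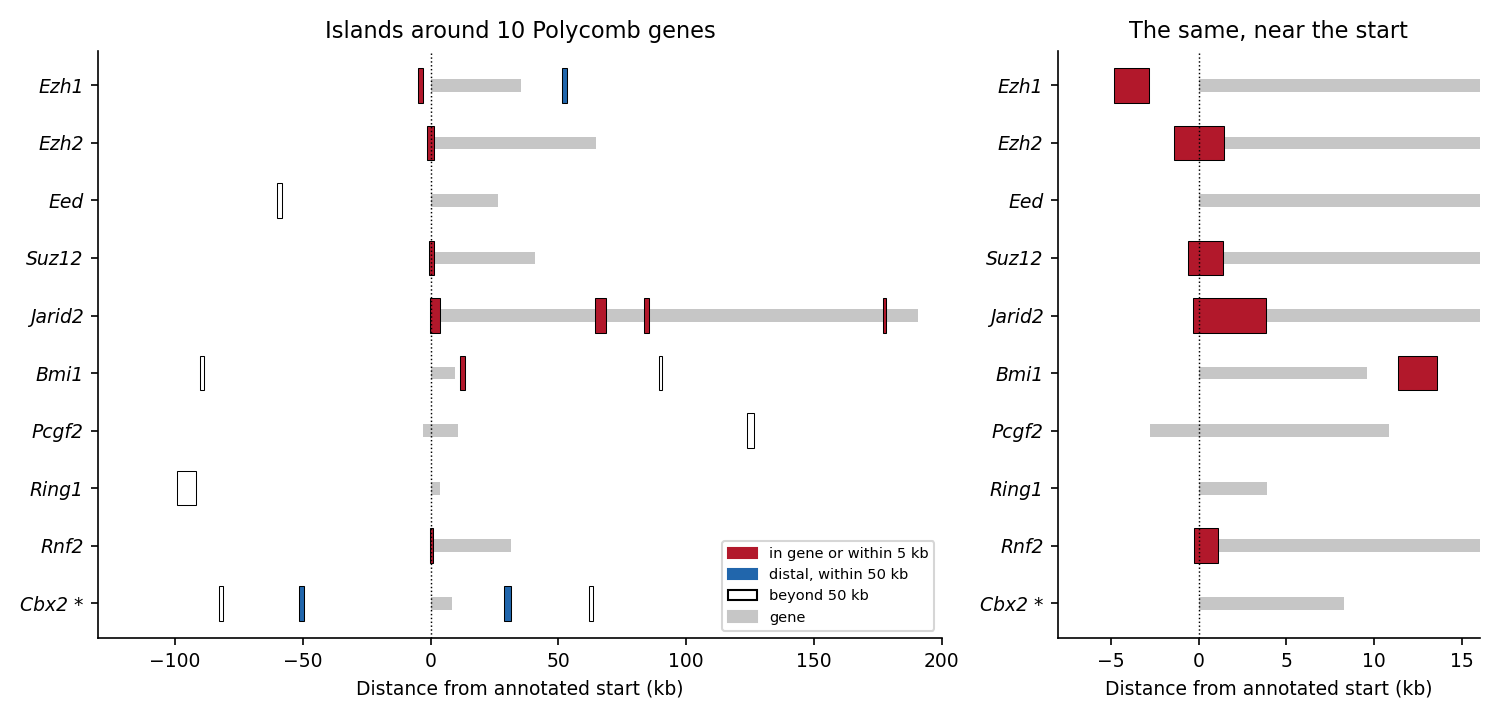
Islands around the 10 Polycomb genes by distance from the annotated start in kb (horizontal axis), with transcription to the right, over a wide range (left panel) and near the start (right panel). Grey bars are genes, red boxes islands in or within 5 kb of the gene, blue boxes distal islands and open boxes the islands beyond 50 kb that lie within 100 kb, with the nearest one for Pcgf2. The island 79.6 kb beyond Jarid2 falls outside the range drawn. Cbx2, marked by an asterisk, is drawn from its lower-coordinate end along the chromosome. Islands covered the start of Ezh2, Suz12, Jarid2 and Rnf2.

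Among the PRC1 genes, 2 of 5 had an island in or within 5 kb (Wilson 95% interval 11.8 to 76.9), against 16.9% of all genes. Of the 4 with a start in the table, 1 had the start inside an island, Rnf2 (4.56 to 69.9), against 8.57% of all genes with one in the table. The intervals of the PRC2 and PRC1 shares overlapped, and their difference was not tested. Rnf2, also called Ring1B, is the main ubiquitin ligase of PRC1. Its island was among the smallest of the list, with 46 reads (33.7 to 61.4) over 1400 bp on chromosome 1 (151499871 to 151501270). It stood at percentile 7.24 of all islands by reads and at percentile 9.04 of the 387 islands of the same width. It ran from 279 bp before the start to 1120 bp after it. Ring1, the paralogous ligase, had none within 50 kb. The nearest island to Ring1 lay 91.6 kb before its start and held 238 reads over 7600 bp, across ends of Brd2, a BET bromodomain gene, and H2-DMa, a gene of antigen presentation.

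Bmi1 had its island after the gene. It held 72 reads (56.3 to 90.7) over 2200 bp on chromosome 2 (18688374 to 18690573) and began 1745 bp past the end of Bmi1, 11356 bp from its start. The island overlapped the predicted coding gene Gm46725 and lay 3438 bp from Spag6, so its assignment to Bmi1 rests on the 5 kb window. Among the 504 islands of that width it stood at percentile 74.5. Further islands of 56 and 51 reads lay 88.6 kb before Bmi1 and 79.7 kb after it, and the first of these overlapped a tRNA gene. Pcgf2, also called Mel18 and the paralogue of Bmi1, had the nearest island at 113 kb, with 77 reads at an end of Srcin1. Of all protein-coding genes, 51.9% had their nearest island at least that far away.

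Cbx2, a chromodomain subunit of PRC1, had no island within 5 kb and 2 distal ones. It lies beside the related gene Cbx8 on chromosome 11. The nearer distal island held 87 reads (69.7 to 107) over 2800 bp (119051887 to 119054686), 20.6 kb from Cbx2. It lay on the far side of Cbx8, which was the nearest gene at 11.0 kb. The farther one held 53 reads (39.7 to 69.3) over 1800 bp, 49.5 kb from Cbx2 and just inside the 50 kb limit, with Enpp7 nearer to it. Outside the limit, further islands lay 53.6 kb and 81.3 kb from Cbx2, and the nearest island to Eed lay 58.1 kb from that gene.

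The 9 near islands had ordinary counts for the list. Their median was 65 reads (range 44 to 117), against 68 for all islands, and the median width was 2200 bp in both sets. The density, in reads per 200 bp, had a median of 6.20 (range 5.57 to 7.33), against 6.27 for all islands. Compared with islands of the same width, 3 of the 9 reached the median of their width, those at Ezh2, Suz12 (equal to it) and Bmi1. Over the whole list, 3074 of 5727 islands reached the median of their own width. The counts are the authors' own values, and wider islands of the list held more reads. The order of these 9 by reads followed their order by width.

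**Figure D4:**
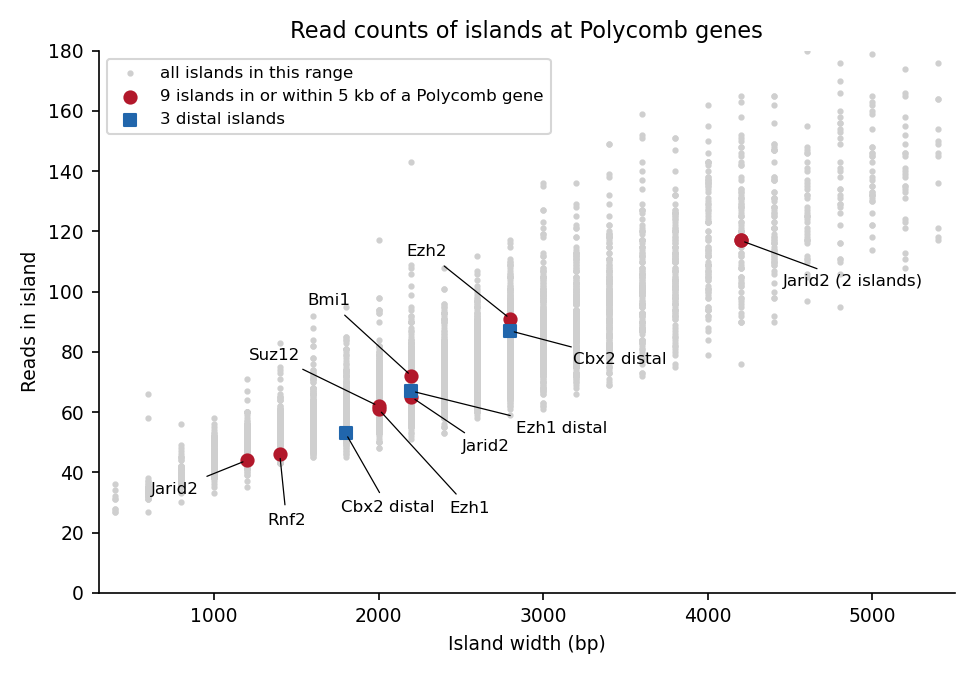
Reads (vertical axis) by island width in bp (horizontal axis) for the 9 islands in or within 5 kb of a Polycomb gene (red circles), the 3 distal ones (blue squares) and all islands in the range drawn (grey). The Polycomb islands lay within the band of the other islands, with 117 reads at most.

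A wider list of 34 other Polycomb genes was read in the same way. Islands in or within 5 kb were found at 6 of them, 17.6% (Wilson 95% interval 8.35 to 33.5), against 16.9% of all genes, so this share lay near the background. The shares in their own length classes added up to 7.79 genes. The start lay inside an island in 2 of the 27 with a start in the table, Scmh1 and Kdm2b, against 8.57% of all genes with one. Auts2 and Kdm6b, which had near islands, had no start in the table and were not counted here. By group, islands were found at 2 of 8 canonical PRC1 genes, at 3 of 13 variant PRC1 genes and at 1 of 6 genes of the PR-DUB deubiquitinase and the H3K27 demethylases. None of 7 accessory PRC2 genes had one (Wilson 95% interval 0 to 35.4), Rbbp4, Rbbp7, Aebp2, Phf1, Mtf2, Phf19 and Epop. With so few genes, 3 counts would be a share of 42.9%. A distal island was found at 3 of these 7, Phf1, Mtf2 and Phf19, against 22.1% of all genes. Some of the 34 genes, Rbbp7 among them, lie on chromosome X, which held only 23 of the 5727 islands.

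In canonical PRC1, Phc2, a polyhomeotic subunit that drives the clustering of PRC1, had 3 islands inside the gene, of 71, 102 and 59 reads. Scmh1, a further subunit, had one of 77 reads (60.8 to 96.2) across its start. In variant PRC1, Kdm2b, the subunit that binds unmethylated CpG, had an island of 81 reads (64.3 to 101) across a start and one of 45 inside the gene. Auts2 had 2, one of 55 reads inside the gene and one of 61 reads across an end of it. Bcor, a corepressor gene on chromosome X, had one of 63 reads (48.4 to 80.6) inside the gene. Kdm6b, a demethylase that removes the mark set by PRC2, had 3 islands. Those of 225 and 134 reads lay inside the gene, and that of 57 reads lay 1810 bp outside it. Kdm6a, the related demethylase, and Bap1, Asxl1, Asxl2 and Asxl3 of the deubiquitinase had none. Kdm6a lies on chromosome X, where the list holds few islands, and its nearest island was 4698 kb away. The contrast with Kdm6b may therefore not be particular to the gene, which was not tested.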

How the data were processed

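Brg1 ChIP-seq of 1 library was read from the deposited island list, whose last column, a whole number per island, was taken as the authors' count of reads, unscaled for depth. SICER 1.1, Bowtie 0.12.7 and Picard 1.127 are listed in the submitters' processing notes, as are mm10 and mm9, with no roles. SICER's window, gap and thresholds and whether it used the input are not stated there. Islands were taken as mm10 because 1368 of 5727 covered an annotated start of a protein-coding gene as deposited, against 116 to 155 when moved by 10 to 200 kb. Widths were multiples of 200 bp in 5724 islands with both ends counted, so 1 was added to start and end to give 1-based positions.

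Gene extents, names and promoters came from RefSeq GRCm38.p6, on the autosomes and X. Starts and strands came from the promoter table (17274 of 21631 protein-coding genes). Promoter windows were the 250 bases before a start. The strand of the sequences was checked on 1677 overlapping windows of opposite strands, all reverse complements. Distances run between nearest edges, and a gene with several starts counts by the nearest. Python 3.11.15, pandas 2.3.3 and scipy 1.17.1 were used, with Wilson 95% intervals on shares and exact Poisson 95% intervals on reads. The assignment of islands to genes was tested on simulated islands. No protein table was used, so the planned protein identities were not computed. Genes named are the 10, up to 8 of the wider list by reads, and the nearest genes and gene ends of each island, and 1 gene that this rule takes is not reported here. The genes, lists and motifs were chosen with earlier results of these data known. Intervals treat reads and genes as independent.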

Additional observations from a re-analysis of the deposited data

How the results depend on the processing

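Of 33 alternative values for the 4 counts of genes with an island, 24 stayed within 1.5 times the reported count. Taking only the 2938 islands of 68 reads (the median) or more, near islands were found at 3 of the 10 Polycomb genes (Ezh2, Jarid2 and Bmi1) against 9.66% of all genes, starts at 2 of 9 against 5.21%, and distal islands at 1 against 12.3%. With the 1464 islands of 86 reads or more, the counts were 2 (Ezh2 and Jarid2) against 5.21%, 2 of 9 against 2.66%, and 1 against 6.75%, and 2 of the 34 other genes (Phc2 and Kdm6b) had one. These sets hold fewer islands by construction. Distal islands within 100 kb were found at 6 genes against 37.9% of all genes, and distal islands away from other genes at 1 against 4.77%. Within 1 kb of the gene, 4 genes had an island against 15.1% of all genes, Ezh1 and Bmi1 being lost, and with each island given to its nearest gene only 5 did against 15.3%, Bmi1 being lost. With the midpoint within 1 kb of a start, 3 of 9 did against 7.86%, Jarid2 being lost. No paired analysis was possible because there is 1 ChIP library and no result comes from a test. A count in 1 library says nothing of the spread between tumours, and some calls rest on few reads, as at Rnf2 with 46, where the lowest count in the list was 27.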

Other observations

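The island of 225 reads inside Kdm6b (exact Poisson 95% interval 197 to 256) stood apart from the others at Polycomb genes by its density. It held 11.3 reads per 200 bp over 4000 bp on chromosome 11 (69405299 to 69409298), at percentile 99.01 of all islands by density, and had the highest count among islands of its width. The other 2 islands at Kdm6b held 7.13 and 5.58 reads per 200 bp. Of the genes with a near island and a start in the promoter table, 51.8% had the start inside an island, and of the 10 Polycomb genes 4 of 6 did.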
